A study of Mus musculus with 6 samples.

Results

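The genes of the LIF and IL-6 signalling axis were examined for listed ATAC-seq regions in basal stem cells of the mouse prostate. The set has 10 genes: the cytokine genes Lif, Osm and Il6, the receptor genes Il6st, Lifr and Osmr, the transcription factor gene Stat3, and the inhibitor genes Socs2, Socs3 and Socs6. They were taken by name from 21887 protein-coding genes, with earlier results of these data known. A region was counted for a gene when its centre lay inside the gene span or within 100 kb of it, and 18 of the 6502 regions of the list did so for at least 1 of the 10 genes. Of these genes, 8 had a region and 2, Il6 and Stat3, had none.

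ATAC-seq marks open chromatin by the places where a transposase can cut. The series holds 3 libraries from inflamed prostates, labelled POET3, and 3 from naive prostates, labelled WT. POET3 mice carry a transgene for ovalbumin in the prostate, and inflammation was raised for 7 days by transfer of activated ovalbumin-specific OT-1 splenocytes. The extraction protocol names POET3 mice for naive prostates too, so the labels disagree on the naive genotype, and inflammation and labelled genotype cannot be told apart. All cells were freshly sorted as CD45-, CD31-, Sca-1+ and CD49f+, and the labels do not say how many animals a library stands for.

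The deposited data are 1 merged list of positions on mm10, with no signal, direction or value per library. It was read as a list of regions that differ between the groups, since its name contains "diff" and the submitters' notes name edgeR. Which group had more signal at a region is unknown, and no error or test between the groups could be given. Depth per library is unknown. The regions have fixed widths, 0.143 kb for 3210 of them, called narrow here, and 0.451 kb for 3291, called wide (1 region has another width). What the widths stand for is not given in the sources used here. The identity of the sorted cells could not be checked by level. Marker genes with a region within 100 kb were 4 of 5 basal ones (Krt5, Krt14, Trp63 and Ly6a, not Itga6). They were also 1 of 4 leukocyte ones (Ptprc) and 2 of 3 endothelial ones (Pecam1 and Cdh5). Of all protein-coding genes, 42.7% had one, and some of these regions were far off (87.6 kb from Ly6a, 76.1 kb from Ptprc). Having a region says nothing of expression.

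LIF, oncostatin M and IL-6 are secreted cytokines whose receptor complexes share the chain gp130, encoded by Il6st. LIF pairs gp130 with the LIF receptor chain, and oncostatin M pairs it with its own receptor chain. The complexes activate JAK kinases, which phosphorylate STAT3. STAT3 switches on Socs3, whose product binds gp130 and shuts the signal off, while SOCS2 is best known as a brake on growth hormone signalling. The pathway is widely studied in inflamed epithelia and in the prostate.

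Sequence was read from RefSeq promoter windows of build GRCm38.p6, which has the same primary chromosomes as mm10. These windows run from 250 bases before to 50 bases after an annotated start, and 7 of the 10 genes have at least 1 (Osm, Socs2 and Socs6 have none). None of their 8 windows was crossed by a listed region, against 2.21% of all 32851 windows. So few windows say little beside that share. The count also leaves out Socs2, where a region was centred 0.374 kb inside an end of the gene span. A window need not stand at the outer end of a gene, as both windows of Lifr lie inside its span. Of the 18 regions, 2 could be read in part, since they cross windows of other genes, both on chromosome 10. The first lies inside Socs2 and shares 48 bases with the window of the noncoding gene 5730420D15Rik, and its last 30 bases are shown (chr10:95417143-95417172, plus strand). The second covers the whole window of Ube2n, of which the 250 bases before the start are shown (chr10:95514912-95515161, plus strand). None of the motifs searched lay in the shared bases of either region, so these 2 sequences have no capitals.
Region end in Socs2: tgcccctgtgtctgcaacagctgagcacct
Region at Ube2n: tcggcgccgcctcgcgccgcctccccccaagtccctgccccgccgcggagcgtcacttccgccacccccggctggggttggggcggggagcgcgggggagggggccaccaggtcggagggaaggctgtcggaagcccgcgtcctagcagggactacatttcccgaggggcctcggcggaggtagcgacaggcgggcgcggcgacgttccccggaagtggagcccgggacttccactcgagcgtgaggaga

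The starts of Lif and Il6 are shown because these cytokine genes had the most and the fewest regions in their group, and a stretch at Socs3 because it holds the STAT match. Capitals mark motif matches on either strand. The motifs were TTCNNNGAA for the STAT factors, then TGANTCA for AP-1, AGAACA for the hexamer of androgen and glucocorticoid receptors, and the standard degenerate consensus of NF-kB. Lif (chr11:4257318-4257567, plus strand) had an AP-1 match at -228 to -222 from the start. Il6 (chr5:30012864-30013113, plus strand) had an AP-1 match at -249 to -243 and an NF-kB match at -44 to -35. Socs3 (chr11:117969502-117969531, minus strand) had a STAT match at -154 to -146.
Lif: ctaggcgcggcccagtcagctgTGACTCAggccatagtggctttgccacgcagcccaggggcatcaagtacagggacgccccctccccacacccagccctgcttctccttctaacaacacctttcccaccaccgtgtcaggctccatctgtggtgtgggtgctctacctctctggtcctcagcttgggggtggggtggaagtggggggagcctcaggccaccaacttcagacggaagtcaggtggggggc
Il6: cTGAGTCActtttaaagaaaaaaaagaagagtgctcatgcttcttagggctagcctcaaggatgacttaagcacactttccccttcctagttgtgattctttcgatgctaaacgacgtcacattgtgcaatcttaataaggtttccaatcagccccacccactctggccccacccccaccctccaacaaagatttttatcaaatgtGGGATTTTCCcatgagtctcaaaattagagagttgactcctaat
Socs3: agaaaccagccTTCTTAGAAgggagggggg

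Over the 7 genes with a window, STAT letters were found at 1 (Socs3), AP-1 letters at 3 (Il6, Lif and Osmr), the hexamer at 1 (Stat3) and NF-kB letters at 1 (Il6). Of all windows, 8.30% held the STAT motif, 7.81% AP-1, 19.0% the hexamer and 4.51% NF-kB. A match describes letters only, and a window without one says nothing of the factor.

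The members' regions were set against the same count for every protein-coding gene. A region in reach was found for 8 of the 10 genes, where 42.7% of protein-coding genes had one. A region inside the gene itself was found for 3 of the 10 (Lif, Lifr and Socs2), where 10.2% of protein-coding genes had one. Longer genes can hold more regions, and the share inside genes was not matched for span. Among genes of similar span (within 2-fold), 37.2% (for Osm) to 57.0% (for Lifr) had a region in reach. The 10 genes had a median of 1.5 regions, and all protein-coding genes a median of 0 and a mean of 0.727. Lif and Osm are neighbours and share all their regions, so the 8 genes are not 8 separate loci. These counts are a description, with no test, of genes chosen with earlier results of these data known. As the libraries are bulk, a shift in the mix of sorted cells and a change within cells cannot be told apart at any listed region.

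**Figure D1:**
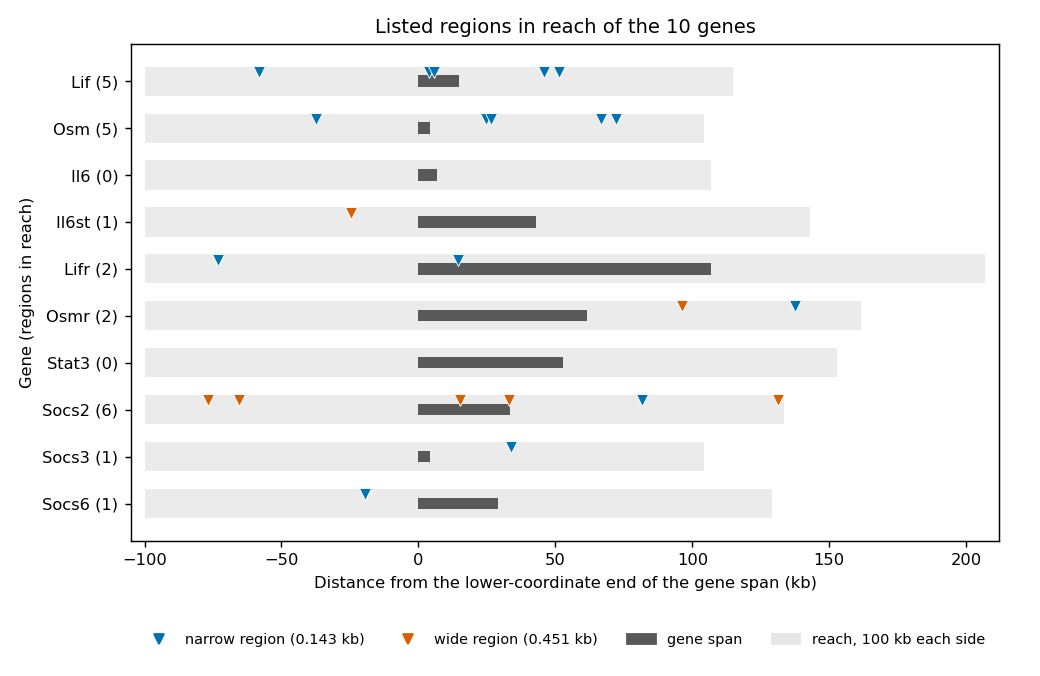
Each row is a gene, with its span in dark grey, the 100 kb counted on each side in light grey, and each listed region as a triangle coloured by width. The horizontal axis is the distance in kb from the end of the span with the lower coordinate. Lif and Osm have 5 narrow regions each, which are the same 5, Socs2 has 5 wide and 1 narrow, and Il6 and Stat3 have none.

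Among the cytokine genes, Lif had 5 regions, all narrow, and Osm had the same 5. Lif (NCBI gene 16878) spans 14.9 kb of chromosome 11, 4257568 to 4272514, on the plus strand. Inside it lay regions at 4261361 to 4261503 and at 4263040 to 4263182, centred 3.86 and 5.54 kb after the start. They are 1.68 kb apart. Of the list's 6481 pairs of neighbouring regions, 97 (1.5%) lay within 2 kb of each other, and the median gap was 156 kb. The 2 kb cut was set from this pair. The tables used here do not hold exons, so exon and intron were not told apart.

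Past the far end of Lif lay a further pair, at 4303242 to 4303384 and 4308714 to 4308856, 30.8 and 36.3 kb outside the gene. Lif was the nearest protein-coding gene of each, but the first lies inside the noncoding gene Gm11958 and the second 4.64 kb from it. The last region, at 4199163 to 4199305, lay inside Tbc1d10a, 58.3 kb before Lif. The 5 regions together stretch over 109.7 kb, and the next region beyond them was 389 kb from Lif.

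A count of 5 or more was reached by 1.13% of protein-coding genes, and by 0.516% of the 7746 genes whose span lies within 2-fold of that of Lif. At least 5 narrow regions with no wide one were found at 44 protein-coding genes (0.201%). This cut was set from the pattern at Lif and Osm, so both meet it by construction. Of these 44 genes, 4 are neighbours in this stretch of chromosome 11: Tbc1d10a, Castor1, Osm and Lif. At least 2 regions inside the span, as at Lif and Socs2, were found for 2.55% of protein-coding genes.

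Osm (NCBI gene 18413) lies 16.5 kb from Lif, at 4236785 to 4241026, and had no region inside its 4.24 kb. Its nearest region was the first of the pair inside Lif, 20.4 kb away, and the others lay 22.1, 37.6, 62.3 and 67.8 kb away. Osm was not the nearest protein-coding gene of any of them, so every region counted for Osm is one that lies closer to Lif or inside Tbc1d10a.

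Il6 had no region in reach. It is NCBI gene 16193, at 30013114 to 30019975 on chromosome 5. Its nearest region, a narrow one at 29708331 to 29708473, was 305 kb away. Of all protein-coding genes, 70.6% had a region at least as near as that.

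**Figure D2:**
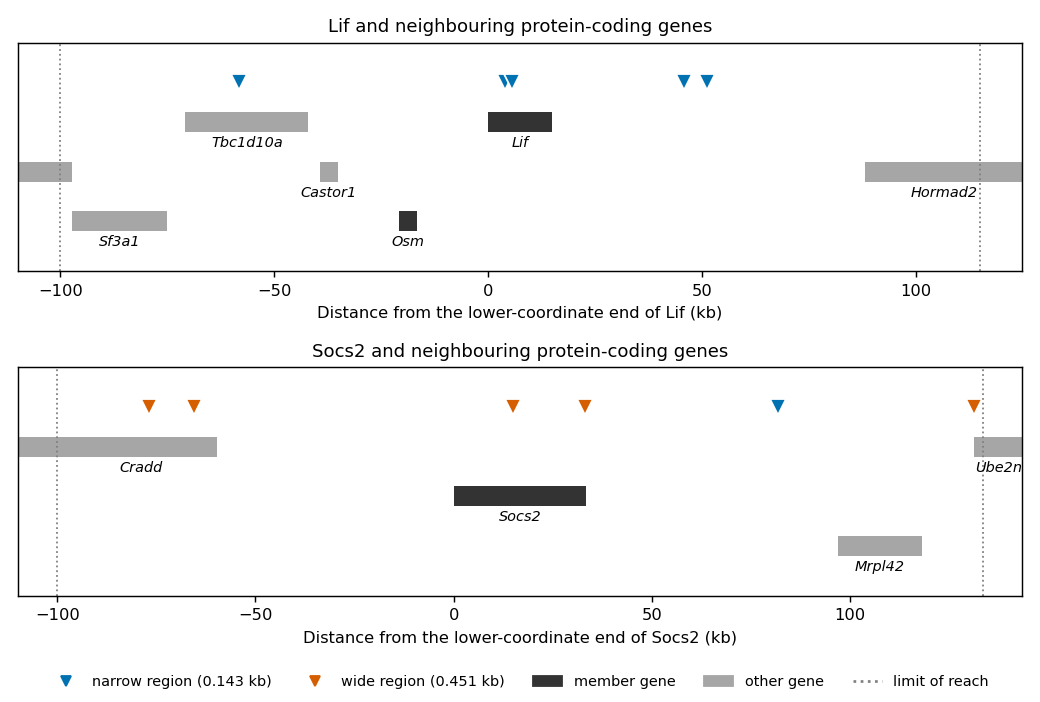
The upper panel shows Lif with Osm, and the lower panel Socs2, each with neighbouring protein-coding genes as bars at 3 heights for legibility and listed regions as triangles. The horizontal axis is the distance in kb from the end of Lif or Socs2 with the lower coordinate, and dotted lines mark 100 kb on each side. At Lif all 5 triangles are narrow regions and 2 sit over the gene, and at Socs2 2 of the 6 sit over the gene and 3 over or beside Cradd and Ube2n.

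The receptor genes had 1 or 2 regions each, in mixed widths. Il6st, which encodes gp130 (NCBI gene 16195), had 1 wide region at 112439231 to 112439681 on chromosome 13. It was centred 24.6 kb before the start of the gene, which spans 112464070 to 112506860 on the plus strand. Il6st was its nearest protein-coding gene, and the noncoding gene Gm33905 lay closer, at 16.4 kb from it. At least 1 region in reach was found for 48.4% of genes of similar span (within 2-fold), so this count is near the background.

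Lifr, the LIF receptor chain (NCBI gene 16880), spans 107 kb of chromosome 15, 7090610 to 7197489, and had 2 narrow regions. The first, at 7105086 to 7105228, lay inside the span, 14.5 kb from its lower end. It lay 24.4 kb before the nearer of the 2 starts that the promoter table gives for Lifr. The other, at 7017400 to 7017542, was 73.1 kb outside the gene and inside the noncoding gene Gm30559.

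Osmr, the oncostatin M receptor chain (NCBI gene 18414), lies 216 kb from Lifr on the same chromosome, at 6813568 to 6874968 on the minus strand. It had a wide region at 6909627 to 6910077 and a narrow one at 6950946 to 6951088. Their centres were 34.9 and 76.0 kb outside the gene, on the side of its start and towards Lifr. At least 2 regions in reach, as for Lifr and Osmr, were found for 17.9% of protein-coding genes. Among genes of similar span the share was 27.9% for Lifr and 23.1% for Osmr.

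The 100 kb limit cut through this stretch. A wide region at 6981191 to 6981641 lay between the receptor genes, 106 kb from Osmr and 109 kb from Lifr, and was the first outside the limit for both. Just inside the limit stood a region 97.8 kb from Socs2.

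Stat3 (NCBI gene 20848) had no region in reach. It spans 100886806 to 100939594 on chromosome 11, and its nearest region, a narrow one at 101120005 to 101120147, was 180.5 kb away. Of all protein-coding genes, 57.4% had a region at least as near. The adjoining genes Stat5a and Stat5b had no region in reach either.

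Socs2 had 6 regions, the most among the 10 genes. Of these, 5 were wide and 1 was narrow, while those of Lif were all narrow. The gene (NCBI gene 216233) spans 33.4 kb of chromosome 10, 95383903 to 95417321. A region at 95398742 to 95399192 lay inside it, 15.1 kb from the lower end. Another, at 95416722 to 95417172, was centred 0.374 kb inside the upper end and 0.428 kb from the annotated start of 5730420D15Rik. It is the region whose last bases are printed above, and the only one within 1 kb of an end of a member gene. The strand of Socs2 was not read, so whether this end is the start of Socs2 was not told.

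The other 4 regions lay closer to other genes. Wide regions at 95306800 to 95307250 and 95318076 to 95318526 lay inside Cradd, an adaptor gene of apoptosis signalling, 76.9 and 65.6 kb from Socs2. The narrow region, at 95465616 to 95465758, lay 48.4 kb from Socs2 and 15.1 kb from Mrpl42. The region at 95514873 to 95515323 was centred 0.0640 kb from the start of Ube2n, which encodes a ubiquitin-conjugating enzyme, and is the one whose Ube2n bases are printed above.

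At least 6 regions in reach were found for 0.402% of protein-coding genes, and for 0.258% of the 7365 genes of similar span. At least 5 wide regions were found for 0.320%, which is 70 genes, and these hold Socs2 and its neighbour Cradd. That cut was set from the count at Socs2, which meets it by construction. The regions were dense over a wider stretch too, with 20 within 1000 kb of Socs2, where the median over protein-coding genes was 5 and the middle of the range ran from 3 to 7 (quartiles).

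Socs3 (NCBI gene 12702), which spans 117966079 to 117970336 on chromosome 11, had 1 narrow region. At 117999772 to 117999914 it lay 29.5 kb from Socs3, inside Pgs1, a gene of phospholipid synthesis, and 2 protein-coding genes were closer to it than Socs3. Among genes of similar span, 37.3% had a region in reach. The next region, at 117849139 to 117849281 and 117 kb from Socs3, overlapped an end of Birc5, which encodes survivin.

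Socs6 (NCBI gene 54607), whose product acts on receptor tyrosine kinase signalling, had 1 narrow region at 88845685 to 88845827 on chromosome 18. It was 19.4 kb from the gene, which spans 88865169 to 88894364, and Socs6 was its nearest protein-coding gene. The region stood alone, as the next one was 3.96 Mb from Socs6 and no other lay within 1000 kb. Among genes of similar span, 45.4% had a region in reach.

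**Figure D3:**
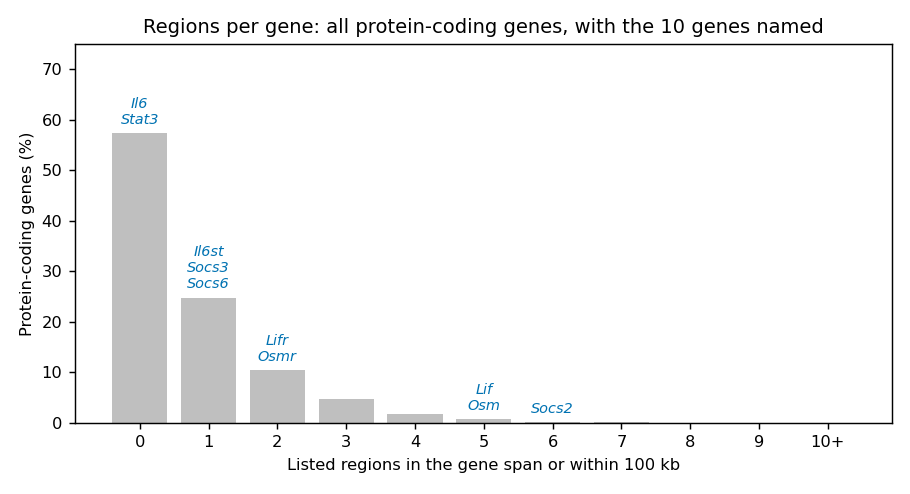
Bars give the percentage of all 21887 protein-coding genes with each number of listed regions inside the span or within 100 kb, and names mark the number at each of the 10 genes. Genes with 10 or more regions are joined in the last bar, and the most at any gene was 16. Il6 and Stat3 share the bar at 0 with 57.3% of genes, while Lif and Osm stand at 5 and Socs2 at 6.

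Of the 18 regions, 12 had a member as their nearest protein-coding gene and 6 lay closer to, or inside, another. The members that were the nearest gene of a region were Lif, Il6st, Lifr, Osmr, Socs2 and Socs6, 6 of the 10, where 16.9% of protein-coding genes were so. That share was not matched for gene span. When noncoding genes and pseudogenes were also counted as neighbours, a member remained the nearest gene of 6 regions. Only 5 of the 18 lay inside a member.

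Wide regions made up 7 of the 18 regions at the members, or 38.9% (exact 95% interval 17.3 to 64.3, for counting error only), against 50.6% of the whole list (49.4 to 51.8). The widths were not spread evenly over the genes. All 5 regions at Lif and Osm were narrow, 5 of the 7 wide ones were at Socs2, and the other 2 were at Il6st and Osmr. Without the regions of Socs2, the share of wide regions was 16.7%, further below that of the list. Without those of Lif and Osm it was 53.8%, so its side of the list's share rested on the Lif and Osm locus. The interval for all 18 regions holds the list's share, and it counts regions of the same locus as separate.

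**Figure D4:**
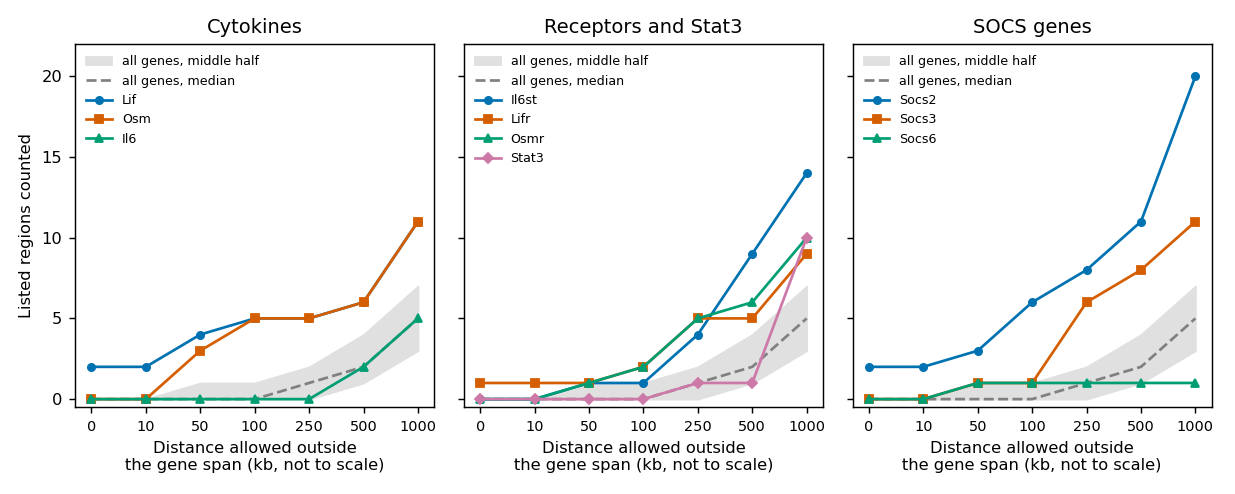
Lines give the number of listed regions inside each gene and within 10, 50, 100, 250, 500 and 1000 kb of it, in 3 panels by role. The dashed line and grey band give the median and quartiles over all protein-coding genes, and distance steps are not drawn to scale. Lif and Osm share 1 line from 100 kb on, Socs2 reaches 20 regions at 1000 kb, and Socs6 stays at 1.

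The counts over wider distances set the genes apart in another way. Within 500 kb, Il6st had 9 regions and Socs3 had 8, where the median over protein-coding genes was 2, while Stat3 and Socs6 had 1 each. Within 1000 kb, Stat3 had 10 regions and Il6 had 5. Il6 was thus at the median of 5, and Stat3 above it.

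Further genes of the pathway were counted by the same rule in 6 lists, also chosen with earlier results known. Of 65 genes, all matched by symbol, 39 (60.0%) had a region in reach, and of the 55 that are not members 31 (56.4%) did, beside the 42.7% of all protein-coding genes. Their median was 1 region, against 0 over all genes. Inside the gene, 7 of the 65 (10.8%) had a region, 3 of them members, close to the 10.2% of all protein-coding genes. Of the 55 that are not members, 4 (7.27%) had one there.

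The gp130 cytokine list had 5 of 8 genes with a region. All 8 distinct regions there were narrow, but 5 of them are those shared by Lif and Osm. Besides Lif and Osm these were Il27, at 36.0 kb from the nearest region, Ctf1 (cardiotrophin 1), at 59.2 kb, and Clcf1, at 78.2 kb. Each of these regions lay closer to another gene. Il6, Il11 and Cntf had none.

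The receptor list had 7 of 9 genes, and 6 of its 9 distinct regions were wide, beside 50.6% of the whole list. Lifr had a region inside the gene, and the closest to a gene end was a region 1.5 kb outside Cntfr, the receptor of ciliary neurotrophic factor, which was also the only region of Il11ra1. Il31ra, next to Il6st, had 3 wide regions, 1 of which is the region counted for Il6st. Il6ra and Il27ra had none.

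The list of JAK kinases and STAT factors had 4 of 11 genes (36.4%), below the 42.7% of all genes, with a median of 0. Jak2, the kinase bound to many cytokine receptors, had 1 narrow region inside the gene. Jak3 had 1 region 89.8 kb away. Jak1, Tyk2, Stat2, Stat3, Stat5a, Stat5b and Stat6 had none.

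The SOCS family had 7 of 8 genes, the highest share of the 6 lists. Apart from Socs2, however, the 6 genes with a region had 1 or 2 each, and all 7 of these regions were narrow and lay outside the genes. Socs1, which blocks JAK kinases directly, had 2, the nearest at 29.1 kb, whose nearest gene was Clec16a. Socs5 was the nearest gene of its region, at 32.8 kb, while Socs4 and Socs7 had a region at 56.4 and 46.5 kb that lay nearer to another gene. Cish had none, with its nearest region 277 kb away.

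Of other regulators, 4 of 9 genes had a region (44.4%). They were Gab1, an adaptor of gp130 signalling with 1 of its 2 regions inside the gene, the phosphatase gene Ptpn2, with 2 wide regions, and Pias3 and Pias4. Ptpn11, Ptpn6, Ptpn1, Pias1 and Pias2 had none.

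Of known STAT3 target genes, 12 of 20 had a region, and 19 of their 23 distinct regions were narrow. In the whole list, 3210 of 6502 regions were narrow. A narrow region was centred 0.0270 kb outside an end of Birc5, and a wide one 0.0610 kb outside an end of Myc, the growth regulator. Both regions overlapped the gene end. Bcl3, which encodes an NF-kB cofactor, had 3 narrow regions, 1 of them inside the gene. Cd14 had 3, the nearest at 16.0 kb. Pim1, Junb, Fos, Ccnd1, Cebpb, Hif1a, Saa3 and Timp1 had none. Many of these genes are also targets of other pathways.

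**Figure D5:**
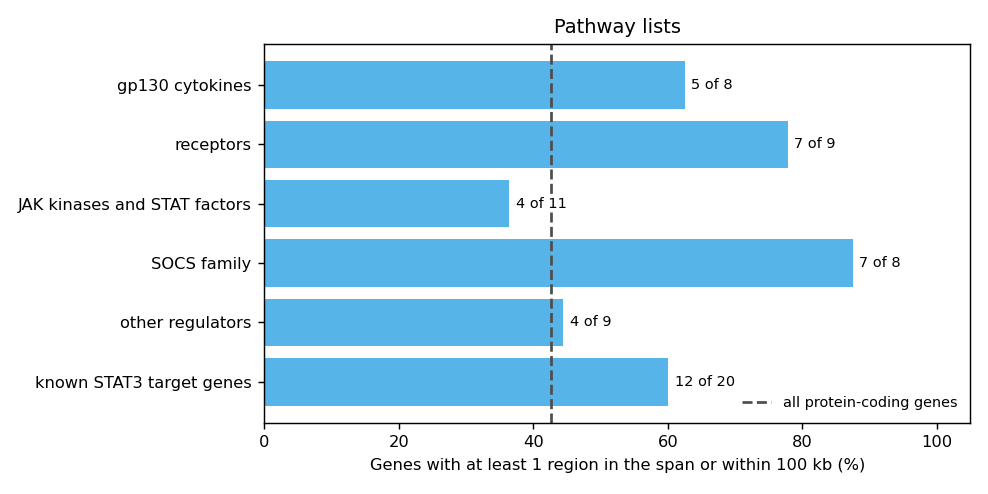
Bars give the percentage of genes in each pathway list with at least 1 listed region inside the span or within 100 kb, with the counts beside them, and the dashed line marks the 42.7% of all protein-coding genes. The lists share the member genes among them, and neighbouring genes can share a region. SOCS genes and receptors stand highest, at 7 of 8 and 7 of 9, and the JAK and STAT list is the only one left of the line.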

How the data were processed

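The authors deposited 1 merged list of coordinates (chromosome, start, end), with no signal and no values for single libraries. BWA 0.7.17-r1188, SAMtools, HOMER 4.8, edgeR and build mm10 were used, per the submitters' processing notes. Their order and thresholds, and any pooling of libraries before regions were called, are not given in the sources used here. A filter before deposit decides which regions appear.

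Starts, counted from 0 in the list, are printed from 1. Gene spans and symbols came from a RefSeq table of GRCm38.p6. Regions were placed by their centre, and inside several genes the shortest was taken as nearest. Genes of similar span are those within 2-fold of the member's span. Motifs were searched in RefSeq promoter windows, since no genome sequence was used here. The members, pathway lists and markers were chosen with earlier results of these data known. Named genes are all members and, per pathway list, up to 4 whose region lies nearest to an end of the gene, and those with none. Others (Il11ra1, Il31ra, Clcf1, Socs4, Socs5 and Socs7) were named after their values were seen. Some list genes are counted but not reported here. Counts were made in Python 3.11.15 with pandas 2.3.3, and the placement code was checked against a plain search at 200 positions drawn around the list. Exact intervals are Clopper-Pearson, and cover counting error only.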

Additional observations from a re-analysis of the deposited data

How the results depend on the processing

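No paired analysis was possible because only pooled coordinates were deposited, so replicate numbers could not be used and no library could be left out. Of 39 values under other settings, 26 stayed within 1.5 times the main count, or within the interval of the share. Counting regions inside the gene span alone gave 3 members with a region, 5 regions, 7 pathway genes and 10.2% of protein-coding genes, since it takes in less sequence. With wide regions alone there were 3 members with a region, 7 regions, 14 pathway genes and 19.7% of protein-coding genes, and with narrow regions alone 11 regions at the members. A window of 250 kb gave 30 regions and a background of 65.8%, and 9 members then had a region, Stat3 among them. The share of wide regions was 16.7% without Socs2 and 53.8% without Lif and Osm, alternatives chosen after the data were seen. With genes of any type as neighbours, 6 regions were nearest to a member. No direction, motif content or GC content of whole regions could be given for want of signal and genome sequence.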
